A study of Mus musculus with 12 samples.

Results

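NRF2 is a transcription factor that switches on antioxidant and detoxifying enzymes, and 10 genes of its pathway are described here in mouse glioma-model cells kept in hypoxia with or without a compound. The genes were taken by symbol: the transcription factors Nfe2l2 (NRF2) and Nfe2l1 (NRF1), the repressor Keap1, and the enzymes Hmox1, Srxn1, Txnrd1, Gclc, Gclm, Gsr and Nqo1. All 10 were found among the 19505 genes measured on the arrays, each by 1 probe (a transcript cluster of the array). The study used Clarion S mouse arrays on cells named S100β-v-erbB/p53-/- TSC1, of strain FVB-NJ, with 4 groups of 3 arrays, and every group was exposed for 16 h. The 3 treated or control groups in hypoxia received BFA, EHT-1864 at 1 µM, or DMSO, the solvent, and the last group received DMSO in normoxia. The treatment protocol gives BFA at 1 µM and the series title gives 0.1 µM, which could not be settled. The labels do not spell out BFA or TSC1; EHT-1864 is known as an inhibitor of Rac GTPases. All 4 groups carry the S100β-v-erbB transgene, in which a glial promoter drives an oncogenic receptor, and lack p53, so no group shows the pathway in cells with p53. The design text speaks of 3 independent cultures of this single kind of cell. Whether equal array numbers stand for a common culture is not stated. The p-values measure the spread between arrays, pooled over all 4 groups, and that spread may be partly technical.

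In unstressed cells KEAP1 hands NRF2 to a CUL3 ubiquitin ligase, and NRF2 is destroyed about as fast as it is made. Oxidants and electrophiles modify cysteines of KEAP1, NRF2 then builds up, pairs with a small MAF protein and binds the antioxidant response element in front of its target genes, while BACH1 represses the same sites, above all at Hmox1. Much of NRF2's control is therefore on its protein, which RNA arrays do not show. NRF1, its relative, sits in the endoplasmic reticulum membrane and is known for raising proteasome genes when the proteasome is blocked. In the brain the pathway is best known from astrocytes, whose glutathione also serves neighbouring neurons.

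Promoter sequences are shown for 3 of the genes because these differed in how they behaved: Srxn1 was high with BFA and near or below background with EHT-1864, Gclm differed little between the compounds, and Nqo1 lay near or below background. Each window holds the 250 bases before the start site in RefSeq on build GRCm38.p6, and such windows were found for 7 of the 10 genes; Hmox1, Gclc and Gsr are named only. The Srxn1 window is chr2:152105274-152105523 on the plus strand, the Gclm window is chr3:122245307-122245556 on the plus strand, and the Nqo1 window is chr8:107403206-107403455 on the minus strand. Capitals mark matches, on either strand, to the antioxidant response element core TGACNNNGC, to the AP-1 element TGACTCA, or to TGAGNNNGC, a form of the core that was added after the Srxn1 sequence had been seen.
Srxn1: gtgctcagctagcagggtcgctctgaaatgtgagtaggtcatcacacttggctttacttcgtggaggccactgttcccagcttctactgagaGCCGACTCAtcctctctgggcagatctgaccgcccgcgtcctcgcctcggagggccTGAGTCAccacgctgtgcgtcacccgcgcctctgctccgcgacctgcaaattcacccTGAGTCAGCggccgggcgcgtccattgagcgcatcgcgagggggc
Gclm: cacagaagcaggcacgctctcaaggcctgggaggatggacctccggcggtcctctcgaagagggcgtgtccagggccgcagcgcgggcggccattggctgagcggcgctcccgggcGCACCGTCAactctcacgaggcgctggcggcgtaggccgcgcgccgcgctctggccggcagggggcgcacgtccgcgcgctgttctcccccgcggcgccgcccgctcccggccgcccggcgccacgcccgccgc
Nqo1: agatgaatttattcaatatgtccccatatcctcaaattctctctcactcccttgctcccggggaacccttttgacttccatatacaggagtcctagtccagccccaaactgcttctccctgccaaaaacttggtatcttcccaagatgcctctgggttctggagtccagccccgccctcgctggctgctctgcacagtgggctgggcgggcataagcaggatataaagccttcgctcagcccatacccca
The Srxn1 window held the AP-1 element at 102 to 96 and at 45 to 39 bases before the start site. Its G-form cores lay at 158 to 150 and at 45 to 37 bases, the nearer of them overlapping the nearer AP-1 match. The Gclm window held TGACNNNGC at 134 to 126 bases before the start site, read on the opposite strand. No capital stands in the Nqo1 window, which says only that these letters are not in it. Over all windows of the same length, TGACNNNGC was found for 11.5% of 27025 genes and for 3 of the 7 genes here (Nfe2l2, Gclm and Txnrd1). TGACTCA was found for 5.16% of genes and for 1 of the 7 (Srxn1), and TGAGNNNGC for 16.3% of genes and for 2 of the 7 (Srxn1 and Nfe2l1). ACGTG, the core of the hypoxia response element, was found for 18.5% of genes and for 3 of the 7 (Nfe2l1, Keap1 and Gclm), and is not marked in the sequences. A gene counted if any of its windows matched, and the 7 genes had 13 windows, against 32851 for all genes, so more windows each. By window, matches stood in 3 of 13 (10.2% of all windows) for TGACNNNGC and in 1 of 13 (4.46%) for TGACTCA. For ACGTG it was 3 of 13 (16.6%) and for TGAGNNNGC 5 of 13 (14.4%). Several of those 5 were overlapping Nfe2l1 windows that held the same site. These matches describe the letters and do not show that a factor binds.

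The arrays of the compound-treated cells differed from the DMSO arrays as a whole, which touches every result below. Background was judged by a floor, the 95th percentile of 5222 neg control probes on the same array, and the floor averaged 6.49 on the log2 scale in BFA, 6.01 in EHT-1864, 5.61 in hypoxic DMSO and 5.61 in normoxic DMSO arrays. The share of probes below the floor was 65.2%, 57.6%, 51.7% and 52.1% in the same order, and the spread of all probes (SD of log2 values) was 2.28, 2.41, 2.51 and 2.48. Over the 25% of probes brightest by their mean over all 12 arrays, the median difference from hypoxic DMSO was -0.27 for BFA and -0.09 for EHT-1864. Over all probes but the 25% dimmest by that mean, it was -0.02 for BFA and 0.02 for EHT-1864. The part of the shift of bright probes in the falls reported here was not tested, and quantile normalization of the arrays is named below wherever it ended a call of the 10 genes. Markers of the cells moved as well: the summed signal of 5 measured oligodendrocyte progenitor markers, Olig2 and Sox10 among them, was 824 to 839 in BFA, 2726 to 3232 in EHT-1864, 8298 to 8597 in hypoxic DMSO and 8808 to 9327 in normoxic DMSO arrays. Each of the 5 exceeded the floor on some array of every group. The summed signal of 7 astrocyte markers was 393 to 488 in BFA, 866 to 992 in EHT-1864, 1217 to 1306 in hypoxic DMSO and 1121 to 1160 in normoxic DMSO arrays, with Gfap, Aqp4, Aldh1l1 and Gja1 below the floor throughout. That of 6 neuron markers was 402 to 423, 707 to 754, 872 to 993 and 835 to 858 in the same order, with Rbfox3, Snap25 and Stmn2 below the floor throughout. Such sums weigh the brightest marker most, here Map2, which averaged 7.44, 8.80, 9.36 and 9.20 in that order. Tubb3 averaged 7.24, 7.48, 7.16 and 6.99. Against hypoxic DMSO, 1 neuron marker was higher and 2 lower in BFA, and 0 were higher and 1 lower in EHT-1864. The summed signal of 6 fibroblast and pericyte markers was 179 to 220, 180 to 212, 120 to 128 and 143 to 152 in the same order. Of these 6, 3 were higher in BFA and 2 in EHT-1864 than in hypoxic DMSO, and Col1a1 alone was above the floor in every group. The part of these markers in the results was not tested. In RNA from whole cultures, fewer cells of a kind and less RNA per cell cannot be told apart. All 6 measured markers of microglia and all 5 of endothelial cells were below the floor on every array.

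**Figure D1:**
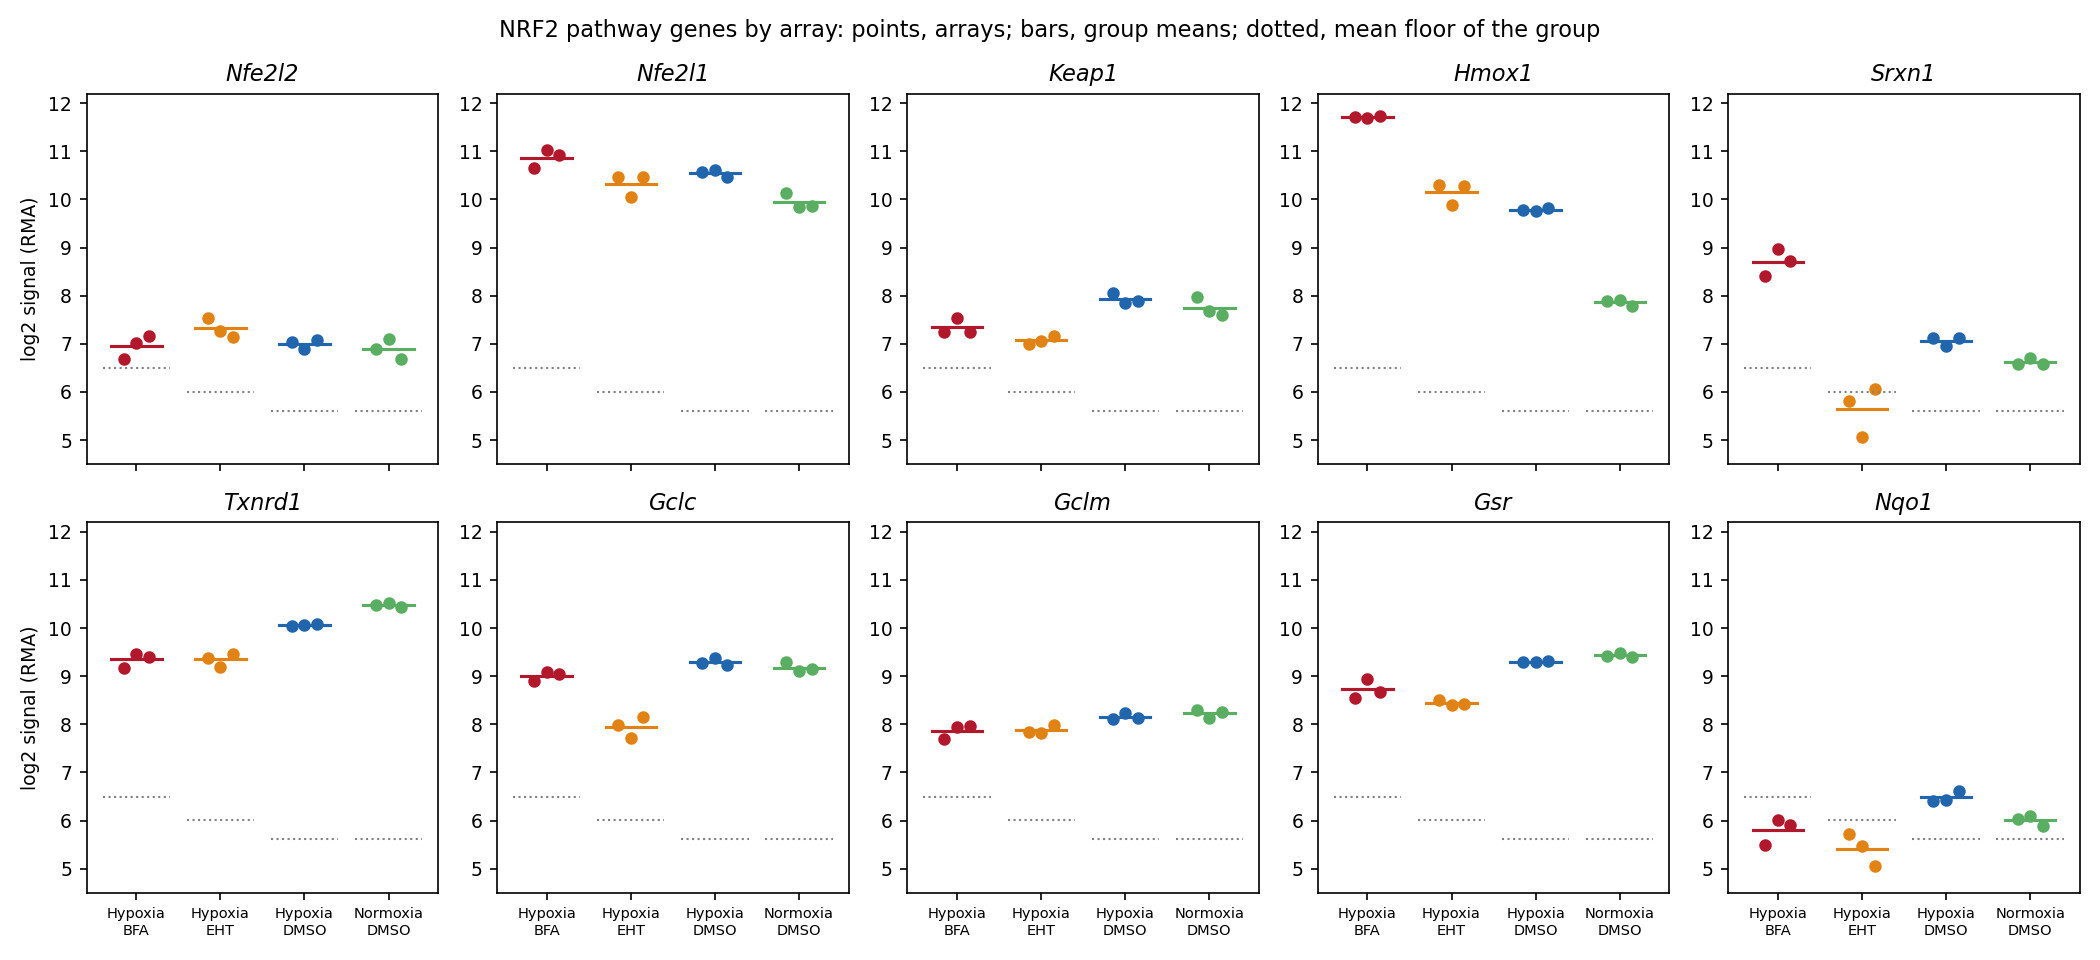
Log2 level of each of the 10 genes on every array, with 1 panel a gene; points are arrays, short lines are group means, and dotted lines mark the mean floor of each group. Hmox1 is highest in BFA, then in EHT-1864, hypoxic DMSO and normoxic DMSO, with no overlap, Srxn1 is high in BFA and low in EHT-1864, and Txnrd1, Gsr and Keap1 are lower with either compound than with DMSO in hypoxia.

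The RNAs of the 2 transcription factors did not pass the test against hypoxic DMSO with either compound, and that of the repressor fell with both. Nfe2l2 read 6.68, 7.03 and 7.15 in BFA, 7.54, 7.28 and 7.15 in EHT-1864, 7.05, 6.90 and 7.07 in hypoxic DMSO and 6.89, 7.10 and 6.69 in normoxic DMSO arrays (log2 levels). BFA overlapped both DMSO groups, while every EHT-1864 array was above every DMSO array. None of the differences passed the test, a limma fit over all 12 arrays with p-values adjusted over 22206 probes and a threshold of 0.05. The EHT-1864 difference from hypoxic DMSO was 0.32 ± 0.16 (log2 difference ± standard error; adjusted p = 0.149), with a 95% interval of -0.02 to 0.66; after quantile normalization it was 0.55 and passed (adjusted p = 0.0123). The BFA difference was -0.05, with an interval of -0.39 to 0.29.

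Nfe2l1 read 10.65, 11.02 and 10.92 in BFA, 10.46, 10.04 and 10.46 in EHT-1864, 10.58, 10.60 and 10.46 in hypoxic DMSO and 10.14, 9.85 and 9.86 in normoxic DMSO arrays. All BFA arrays were above all others, and all normoxic arrays were below the hypoxic DMSO arrays. Hypoxia alone gave a difference of 0.60 ± 0.15 that narrowly missed the threshold (adjusted p = 0.0552) and passed it under 9 of 21 alternative settings. BFA was higher than EHT-1864 by 0.54 ± 0.15 (adjusted p = 0.0123) and higher than normoxic DMSO by 0.91 ± 0.15 (1.88-fold, adjusted p = 0.000266). The difference between the compounds was lost without EHT-1864 array 2 (0.40, adjusted p = 0.0539) and in a fit of the 2 groups alone (adjusted p = 0.0541). Against hypoxic DMSO the BFA difference was 0.31 (adjusted p = 0.0976), and 0.54 after quantile normalization, which passed (adjusted p = 0.00686).

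Keap1 read 7.24, 7.54 and 7.24 in BFA, 6.99, 7.05 and 7.16 in EHT-1864, 8.05, 7.84 and 7.89 in hypoxic DMSO and 7.97, 7.68 and 7.60 in normoxic DMSO arrays. Every compound-treated array lay below every DMSO array. Keap1 fell by 0.86 on the log2 scale with EHT-1864 (standard error 0.14, 1.81-fold, adjusted p = 0.000497) and by 0.59 with BFA (standard error 0.14, adjusted p = 0.00314) against hypoxic DMSO. The EHT-1864 call held under all 21 alternatives; after quantile normalization the BFA difference was -0.26 and did not pass (adjusted p = 0.107). Hypoxia with DMSO differed from normoxia by 0.18 (adjusted p = 0.589), with overlapping arrays.

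Hmox1, which encodes the enzyme that breaks down haem, was higher in hypoxia and higher again with BFA. It read 11.72, 11.69 and 11.73 in BFA, 10.29, 9.89 and 10.29 in EHT-1864, 9.77, 9.75 and 9.82 in hypoxic DMSO and 7.90, 7.90 and 7.79 in normoxic DMSO arrays. The 4 groups did not overlap, and their order was BFA, EHT-1864, hypoxic DMSO and normoxic DMSO from high to low. Hypoxia raised Hmox1 by 1.92 ± 0.13, or 3.78-fold (adjusted p = 1.07e-06). BFA raised it by a further 1.93 ± 0.13, or 3.82-fold, over hypoxic DMSO (adjusted p = 9.64e-08). Both calls held under all 21 alternatives, and BFA stood 14.4-fold above normoxic DMSO (log2 difference 3.85, adjusted p = 9.63e-10). The EHT-1864 difference from hypoxic DMSO was small, 0.38 ± 0.13 (1.30-fold, adjusted p = 0.0375). It lost its call under 9 of 21 alternatives, with adjusted p up to 0.13: without EHT-1864 array 1 or 3, without any single hypoxic DMSO array, without normoxic array 1 or 2, with a replicate block, and in a fit of the 2 groups alone. BFA exceeded EHT-1864 by 1.56 ± 0.13 (2.94-fold, adjusted p = 8.46e-07).

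Srxn1 and Txnrd1 both serve the thioredoxin side of the pathway but behaved differently. Sulfiredoxin, the Srxn1 product, repairs peroxiredoxins that have been over-oxidised. Srxn1 read 8.41, 8.96 and 8.72 in BFA, 5.81, 5.07 and 6.06 in EHT-1864, 7.12, 6.94 and 7.12 in hypoxic DMSO and 6.59, 6.70 and 6.58 in normoxic DMSO arrays. No groups overlapped, and the compounds lay on opposite sides of the DMSO groups. BFA raised Srxn1 by 1.63 ± 0.22, or 3.11-fold, over hypoxic DMSO (adjusted p = 4.59e-05). EHT-1864 lowered it by 2.67-fold (log2 difference -1.42 ± 0.22, adjusted p = 0.000361), with only 1 of its 3 arrays above the floor, so the size of that fall is less certain. The compounds differed by 3.05 ± 0.22, or 8.30-fold (adjusted p = 2.89e-07). The size of that gap is uncertain too, since the EHT-1864 mean of 5.64 was below its mean floor of 6.01. Of the 7 genes with a promoter window, Srxn1 alone carried both AP-1 and G-form matches. Their part in its levels was not tested. These 3 calls held under all 21 alternatives. Hypoxia alone gave 0.44 ± 0.22 without overlap, which did not pass (adjusted p = 0.347).

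Thioredoxin reductase 1, the Txnrd1 product, returns oxidised thioredoxin to its working form with NADPH. Txnrd1 read 9.18, 9.47 and 9.40 in BFA, 9.38, 9.20 and 9.46 in EHT-1864, 10.04, 10.06 and 10.08 in hypoxic DMSO and 10.48, 10.52 and 10.43 in normoxic DMSO arrays. Both compounds were below both DMSO groups, and hypoxic DMSO was below normoxic DMSO. Txnrd1 was 1.64-fold lower in BFA than in hypoxic DMSO (log2 difference -0.71 ± 0.12, adjusted p = 0.000295), and it was 1.64-fold lower in EHT-1864 too (-0.71 ± 0.12, adjusted p = 0.00067). Between the compounds the difference was 0.00, with a 95% interval of -0.25 to 0.26. Hypoxia gave -0.42 ± 0.12, which did not pass (adjusted p = 0.088) and passed under 6 of 21 alternatives.

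Of the glutathione genes, Gclc fell with EHT-1864 and Gsr fell with both compounds. Gclc encodes the catalytic subunit of glutamate-cysteine ligase, the rate-limiting enzyme of glutathione synthesis. It read 8.90, 9.08 and 9.05 in BFA, 7.98, 7.71 and 8.14 in EHT-1864, 9.27, 9.37 and 9.24 in hypoxic DMSO and 9.29, 9.10 and 9.16 in normoxic DMSO arrays. The EHT-1864 arrays stood well below the rest. EHT-1864 lowered Gclc 2.54-fold against hypoxic DMSO (log2 difference -1.35 ± 0.13, adjusted p = 1.23e-05), and BFA exceeded EHT-1864 by 1.06 ± 0.13 (2.09-fold, adjusted p = 2.74e-05). The BFA difference from hypoxic DMSO, -0.28 ± 0.13, did not pass (adjusted p = 0.0825), nor did hypoxia against normoxia at 0.11 (adjusted p = 0.738).

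Gclm encodes the partner subunit that makes the ligase more efficient. It read 7.70, 7.94 and 7.96 in BFA, 7.83, 7.81 and 7.99 in EHT-1864, 8.10, 8.23 and 8.13 in hypoxic DMSO and 8.30, 8.13 and 8.25 in normoxic DMSO arrays. The compound-treated arrays were all lower than the DMSO arrays, by little. The difference from hypoxic DMSO was -0.29 ± 0.12 for BFA (adjusted p = 0.059) and -0.27 ± 0.12 for EHT-1864 (adjusted p = 0.0975), and neither passed. Between the compounds it was -0.01, with an interval of -0.27 to 0.24. The subunits of this enzyme thus had unlike differences with EHT-1864, -1.35 for Gclc and -0.27 for Gclm, a contrast that was not itself tested.

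Gsr encodes glutathione reductase, which restores reduced glutathione. It read 8.54, 8.95 and 8.68 in BFA, 8.51, 8.40 and 8.43 in EHT-1864, 9.29, 9.29 and 9.31 in hypoxic DMSO and 9.43, 9.48 and 9.39 in normoxic DMSO arrays. Both compounds lay below both DMSO groups without overlap. Gsr was 1.80-fold lower in EHT-1864 (log2 difference -0.85 ± 0.12, adjusted p = 0.000214) and 1.49-fold lower in BFA (-0.57 ± 0.12, adjusted p = 0.00164) than in hypoxic DMSO, and both calls held under all 21 alternatives. The difference between the compounds, 0.28 ± 0.12, did not pass (adjusted p = 0.0892).

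Nqo1, a quinone reductase often used as a readout of NRF2, was too dim for firm values. It read 5.483, 6.002 and 5.904 in BFA, 5.72, 5.47 and 5.05 in EHT-1864, 6.42, 6.43 and 6.62 in hypoxic DMSO and 6.03, 6.09 and 5.89 in normoxic DMSO arrays. It was not above the floor on any compound-treated array and was above it on all 6 DMSO arrays. EHT-1864 was at least 1.40-fold lower than hypoxic DMSO, which is a bound from the floor of the EHT-1864 arrays (adjusted p = 0.000677). The BFA values were also lower in the fit (adjusted p = 0.00606), but the floor of the BFA arrays was slightly above the hypoxic DMSO level, so no fold can be given, and after quantile normalization the call was lost (adjusted p = 0.0689). Hypoxia gave 0.48 ± 0.18 without overlap, which did not pass (adjusted p = 0.194).

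In hypoxia without a compound, of the 10 genes 1 was higher (Hmox1) and 0 were lower in hypoxic than in normoxic DMSO, where 2.67% of all probes passed the limma test, 2.11% higher and 0.563% lower. At an unadjusted p under 0.05, 3 were higher and 1 lower, against 8.00% and 7.80% of all probes. The groups did not overlap for 6 of the 10, against 30.2% of all probes, and the median difference of the 10 was 0.15, against -0.03 over all probes. Nfe2l1 and Txnrd1 were the genes nearest to the threshold, on opposite sides of zero. The fit takes its spread from all 12 arrays, the compound-treated ones included. In a fit of the 2 groups alone, 4 of the 10 were higher and 1 lower, and 1234 of 22206 probes passed in place of 593.

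BFA split the set. Against hypoxic DMSO, 2 genes were higher (Hmox1 and Srxn1) and 4 were lower (Keap1, Nqo1, Txnrd1 and Gsr), in a comparison where 50.7% of all probes passed, 26.1% higher and 24.6% lower. The count of 6 in 10 is near that background and is no result about these genes. The groups did not overlap for 9 of the 10 and for 55.9% of all probes. The median of the 10 was -0.29, against 0.11 over all probes and -0.27 over the brightest 25%, so it is near that of bright probes in general. After quantile normalization 2 of the 10 were lower in place of 4, since Keap1 and Nqo1 no longer passed.

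EHT-1864 lowered most of the set. Against hypoxic DMSO, 6 genes were lower (Keap1, Srxn1, Nqo1, Gclc, Txnrd1 and Gsr) and 1 was higher (Hmox1, with the weak call described above). Over all probes 30.5% passed, 13.0% higher and 17.4% lower. The groups did not overlap for 9 of the 10 and for 48.5% of all probes. The median of the 10 was -0.78, against 0.06 over all probes and -0.09 over the brightest 25%. These falls include the repressor Keap1 as well as enzymes, and the comparisons of both compounds share the 3 hypoxic DMSO arrays.

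Set against each other, BFA was higher than EHT-1864 for 4 genes (Nfe2l1, Hmox1, Srxn1 and Gclc) and lower for 0 by limma (5 and 1 at an unadjusted p under 0.05, against 22.3% and 22.6% of all probes). The groups did not overlap for 6 of the 10, against 42.2% of all probes. Nfe2l2, at -0.37 (adjusted p = 0.0869), was the only one of the 10 other than Gclm with a negative difference, and its unadjusted interval ran from -0.71 to -0.03. Over all probes 36.5% passed, 16.9% higher and 19.6% lower in BFA. With the test limited to probes that exceeded the floor on 3 or more arrays, Nfe2l2 passed as lower in BFA (adjusted p = 0.0424).

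Set against normoxia, hypoxia with BFA had 3 genes higher (Nfe2l1, Hmox1 and Srxn1) and 4 lower (Keap1, Gclm, Txnrd1 and Gsr), where 47.0% of all probes passed, 23.0% higher and 24.0% lower. Srxn1 was 4.22-fold above normoxic DMSO (log2 difference 2.08, adjusted p = 5.1e-06), and Txnrd1 was 2.19-fold below it (-1.13, adjusted p = 5.5e-06). The calls of Keap1 (-0.41, adjusted p = 0.0248) and Gclm (-0.36, adjusted p = 0.0242) were weak: both were lost after quantile normalization, without BFA array 1 and without normoxic array 1. Keap1 also lost its call without BFA array 3 (adjusted p = 0.0756), and Gclm without normoxic array 3 (adjusted p = 0.065). Hypoxia with EHT-1864 had 1 gene higher than normoxia (Hmox1, 4.90-fold, adjusted p = 1.14e-07) and 6 lower, where 22.4% of all probes passed, 8.10% higher and 14.3% lower. The 6 were Keap1, Srxn1, Nqo1, Gclc, Txnrd1 and Gsr, with Gclc 2.35-fold lower (log2 difference -1.23, adjusted p = 2.48e-05). For Nqo1 no fold can be given (adjusted p = 0.03), and its call was lost after quantile normalization (adjusted p = 0.0692), without EHT-1864 array 2 or 3 and without normoxic array 1 or 2, with adjusted p up to 0.13.

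**Figure D2:**
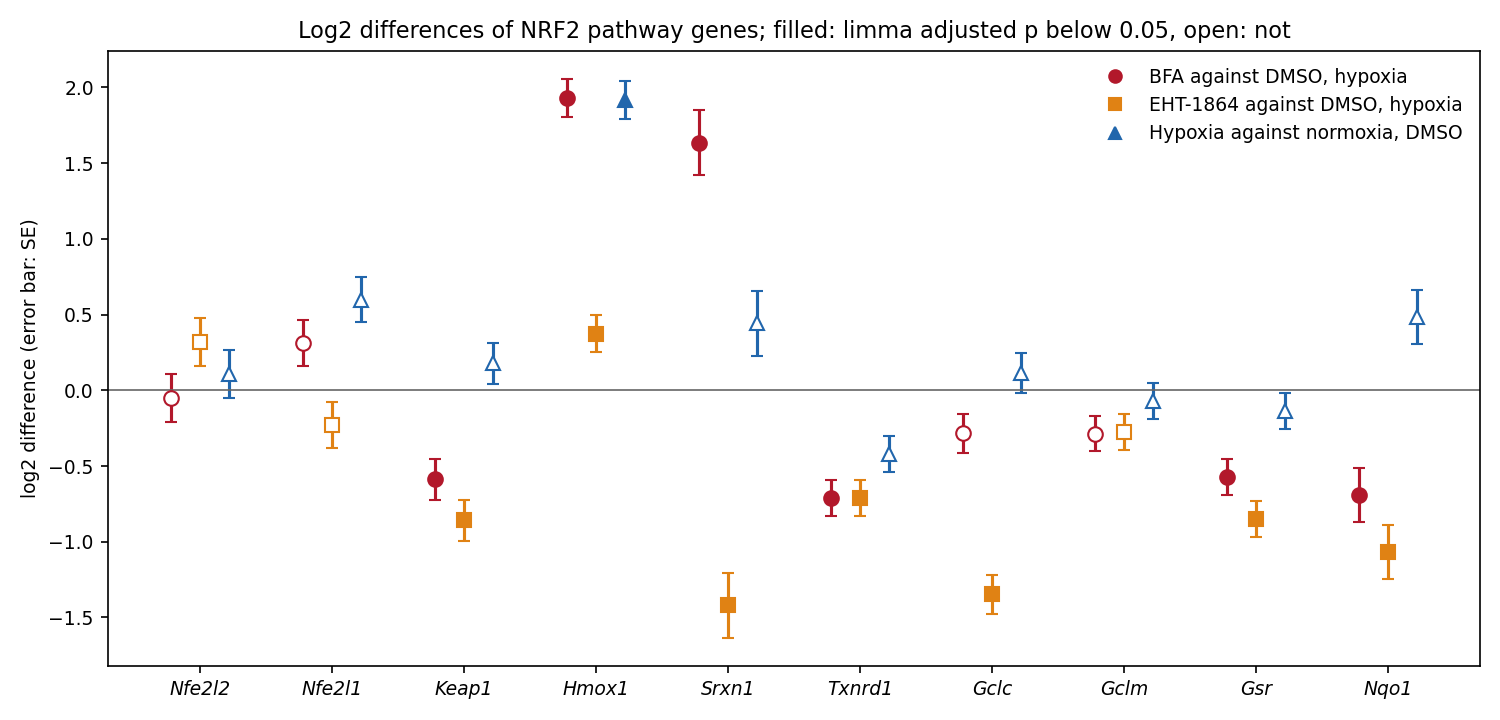
Log2 differences of the 10 genes in the main comparisons, with standard errors of the limma fit as bars; filled points passed the adjusted threshold and open ones did not. Hmox1 and Srxn1 stand far above zero under BFA, whereas Srxn1 and Gclc are the lowest under EHT-1864 at -1.42 and -1.35.

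The genes did not share a single pattern over the 12 arrays. Likeness was measured as the root mean square difference between log2 values, each gene centred on its own mean, so that 0 would be an identical pattern. The closest pairs among the 10 were Txnrd1 with Gsr and Keap1 with Gsr, each at 0.17. Hmox1, Srxn1 and Gclc had the widest ranges of group means. The genes nearest to each were sought among 9780 genes above the floor on at least 3 arrays. Hmox1 was most like Cyb5r1 (0.29), Ppp1r15a (0.34) and Nupr1 (0.39), against a median of 1.51 over all genes. Ppp1r15a encodes the stress-induced subunit that directs a phosphatase to eIF2α, and Nupr1 encodes a stress-induced nuclear protein. Srxn1 was most like Fads3 (0.24), Ero1b (0.29) and Mageh1 (0.31), against a median of 1.23. Ero1b encodes an oxidase of the endoplasmic reticulum. Ero1b averaged 4.47 in EHT-1864 and 5.42 in hypoxic DMSO arrays, under the mean floors of 6.01 and 5.61, and 5.63 in normoxic DMSO arrays. Fads3 averaged 5.10 in EHT-1864 and Ppp1r15a 4.85 in normoxic DMSO arrays, also under the mean floor. The likeness of these 3 genes therefore rests in part on background values. Gclc was most like Trappc10 (0.12), Arpc5 (0.13) and Txndc5 (0.14), against a median of 0.63; these encode a vesicle tethering factor, a subunit of the ARP2/3 complex and a disulfide isomerase. These values share the arrays and their normalization, and they describe likeness only.

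Beyond the 10, 86 further measured genes of the pathway were followed in 6 lists by role. In hypoxic against normoxic DMSO, 8 of the 86 were higher and 0 lower by limma, against 2.11% and 0.563% of all probes. At an unadjusted p under 0.05, 19 were higher and 7 lower, against 8.00% and 7.80%. In BFA against hypoxic DMSO, 15 were higher and 43 lower, against 26.1% and 24.6% of all probes, with a median of -0.35. After quantile normalization 24 were higher and 38 lower. In EHT-1864 against hypoxic DMSO, 14 were higher and 21 lower, against 13.0% and 17.4% of all probes. The median of -0.07 turned to 0.02 after quantile normalization. BFA against EHT-1864 had 13 higher and 40 lower, against 16.9% and 19.6% of all probes. The counts of each role list below stand against the same shares. A share of 43 in 86 lower under BFA compares with 24.6% of all probes, but that percentage takes in dim probes as well. Once probes brighter than the floor on fewer than 3 arrays were left out, the median BFA difference was -0.28, near the -0.35 here. Of the 7423 calls that remained 29.0% were higher, and of the 58 calls in the 86 genes 15 were. The 24.6% is therefore a loose yardstick for these genes and for the role lists. The part of the shift of bright probes in the share of 43 was not tested.

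**Figure D3:**
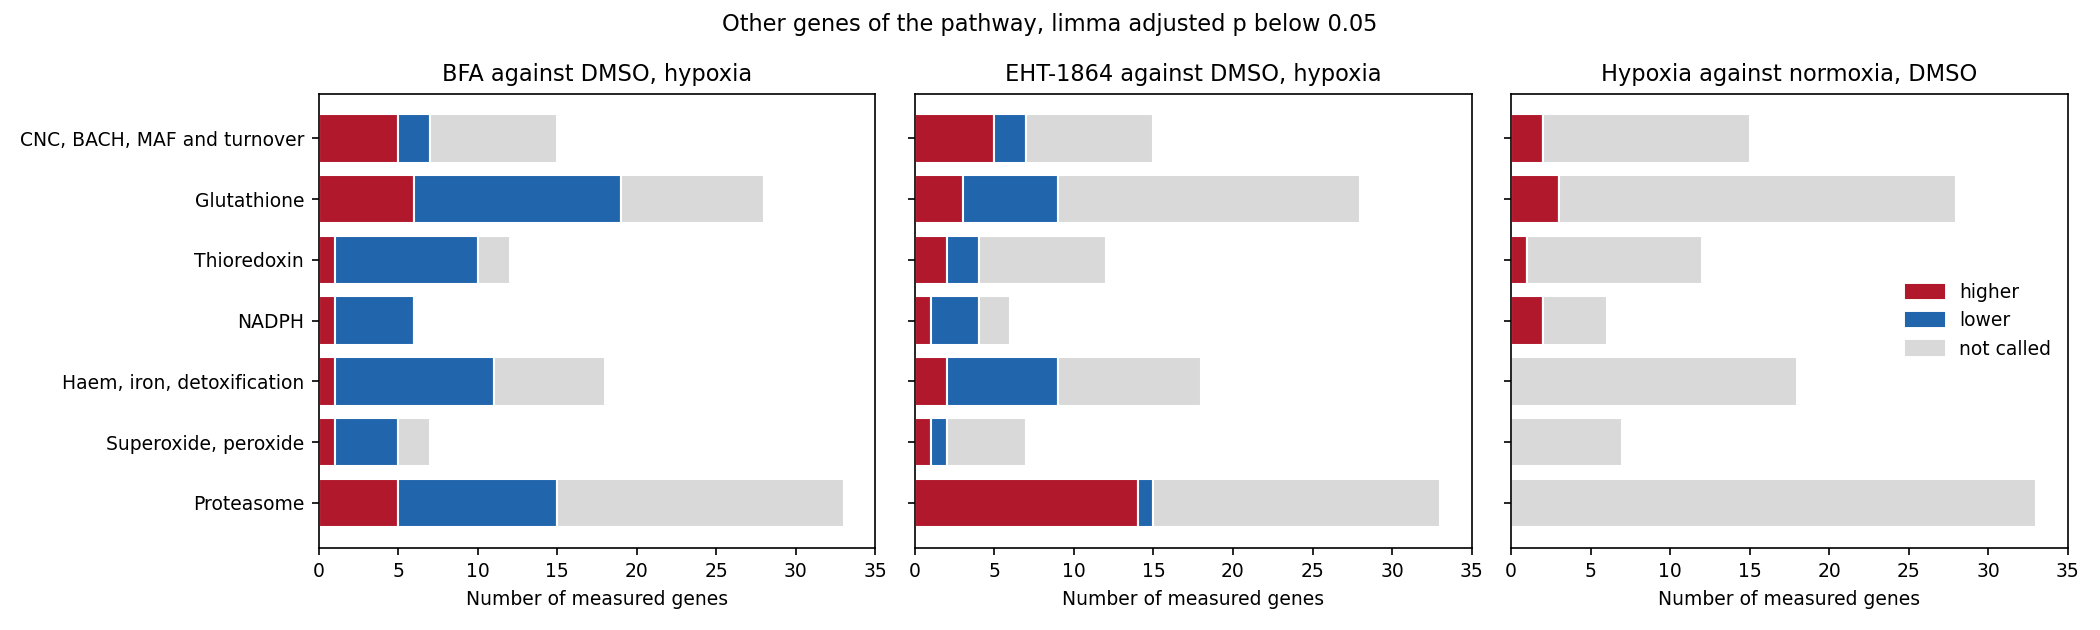
Number of measured genes (horizontal axis) in each role list that passed as higher or lower in the main comparisons. Under BFA most lists had more genes lower than higher, with 13 lower and 6 higher for glutathione and 9 lower and 1 higher for thioredoxin, while the factor list had 5 higher and 2 lower.

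Among the glutathione genes, Slc7a11 and Chac1 were higher in hypoxia and higher again with BFA. Slc7a11, the cystine carrier that feeds glutathione synthesis and a well-known NRF2 and ATF4 target, was 2.03 ± 0.18 higher in hypoxic than in normoxic DMSO (adjusted p = 2.4e-05), averaging 8.15 ± 0.02 and 6.12 ± 0.23 (SD, n = 3 each). It was 1.28 ± 0.18 higher in BFA than in hypoxic DMSO (adjusted p = 9.42e-05) and fell by 1.66 on the log2 scale with EHT-1864 (adjusted p = 3.36e-05), with 2 of 3 EHT-1864 arrays above the floor. BFA exceeded EHT-1864 by 2.93 ± 0.18 (adjusted p = 1.13e-07). The EHT-1864 mean, 6.49, was below hypoxic DMSO but above the normoxic mean. Chac1, which degrades glutathione, was 1.37 ± 0.21 higher in hypoxia (adjusted p = 0.00266) and 1.37 ± 0.21 higher again in BFA (adjusted p = 0.000147). Slc3a2, the partner chain of the cystine carrier, made up the third higher gene of this list in hypoxia at 0.69 ± 0.11 (adjusted p = 0.00457); it is named because it completes the count, after its value was seen. Across the 28 measured glutathione genes, 3 were higher and 0 lower in hypoxia (6 and 0 at an unadjusted p under 0.05), 6 higher and 13 lower in BFA (9 and 12 after quantile normalization), and 3 higher and 6 lower in EHT-1864 (3 and 4). The falls under BFA included Ggct, which acts in the glutathione cycle, at -1.48 ± 0.18 (adjusted p = 2.61e-05), and the transferase Gstm7, which was at least 1.83-fold lower and below the floor. Under EHT-1864, Abcc4, an exporter of conjugates, fell by 0.95 on the log2 scale (adjusted p = 0.000181) and the peroxidase Gpx1 was 0.54 ± 0.12 higher (adjusted p = 0.00367).

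**Figure D4:**
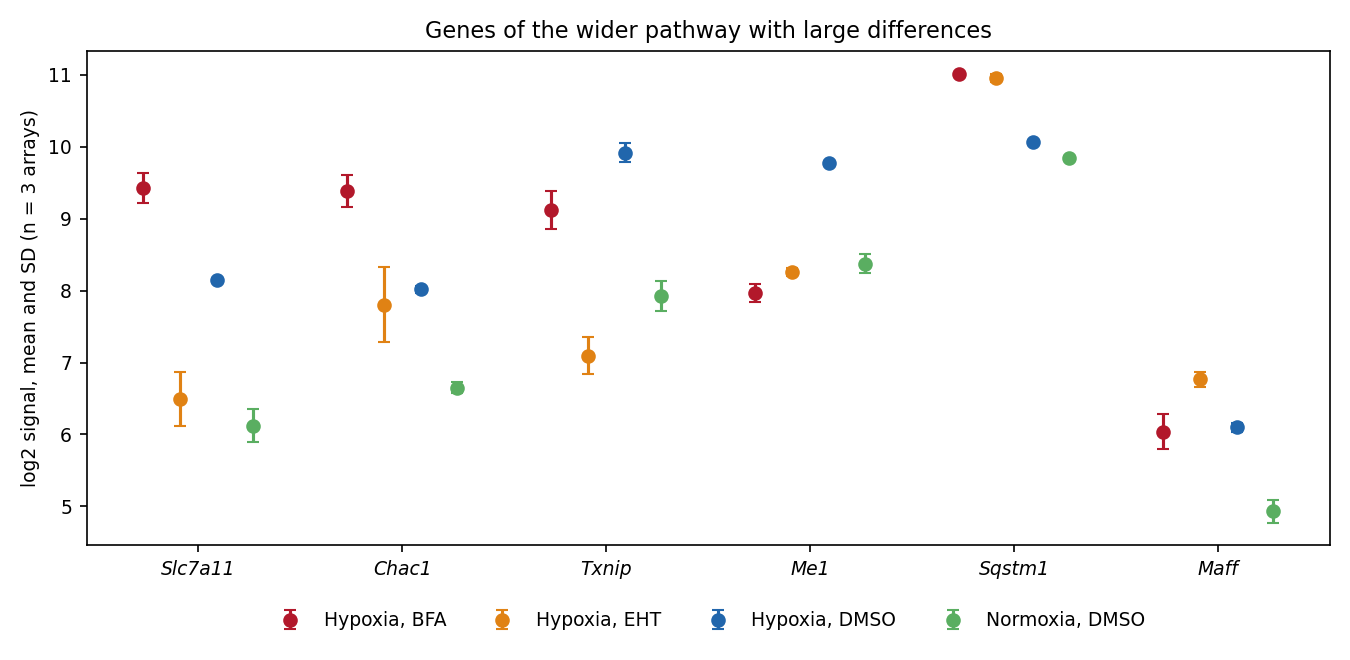
Log2 levels of 6 pathway genes outside the 10; points are group means and bars are the SD of 3 arrays. The genes were picked for large differences. Slc7a11 is highest in BFA and low in EHT-1864. Txnip and Me1 are higher in hypoxic than in normoxic DMSO and lower with either compound than in hypoxic DMSO.

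Of 12 thioredoxin and peroxiredoxin genes, 1 was higher in hypoxia, 1 was higher and 9 lower in BFA (2 higher and 5 lower after quantile normalization), and 2 were higher and 2 lower in EHT-1864. The gene higher in hypoxia was Txnip, which binds and restrains thioredoxin, at 1.99 ± 0.17 (adjusted p = 1.66e-05). Txnip fell by 2.83 on the log2 scale with EHT-1864 (adjusted p = 2.9e-07), and BFA exceeded EHT-1864 by 2.03 ± 0.17 (adjusted p = 1.36e-06). In BFA arrays Txnip averaged 9.12, also below its mean of 9.92 in hypoxic DMSO. Prdx2, a peroxiredoxin that removes hydrogen peroxide, was 1.01 lower in BFA (log2 difference -1.01 ± 0.11, adjusted p = 8.27e-06). Txnl1, a thioredoxin-like protein, was higher with BFA (0.60 ± 0.13, adjusted p = 0.0019) and with EHT-1864 (0.68 ± 0.13, adjusted p = 0.00164). Txnrd3, another reductase, was at least 1.09-fold lower in EHT-1864 (adjusted p = 6.43e-05).

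Of 6 NADPH-supplying genes, 2 were higher in hypoxia (1 after quantile normalization). In BFA 1 was higher and 5 lower (1 and 4 after quantile normalization), and in EHT-1864 1 was higher and 3 lower (2 and 3). Me1, malic enzyme, was 1.40 ± 0.12 higher in hypoxic than in normoxic DMSO (adjusted p = 1.02e-05), and fell by 1.80 with BFA (adjusted p = 8.5e-08) and by 1.52 with EHT-1864 (adjusted p = 1.8e-06) on the log2 scale. Mthfd2, a folate enzyme of mitochondria, was higher in hypoxia (0.61 ± 0.15, adjusted p = 0.0452) and in BFA (0.51 ± 0.15, adjusted p = 0.0118). Idh1, the cytosolic isocitrate dehydrogenase, fell by 1.67 with BFA (adjusted p = 2.55e-05) and by 1.93 with EHT-1864 (adjusted p = 2.65e-05). Idh2, its mitochondrial counterpart, was the gene higher with EHT-1864, at 0.36 ± 0.11 (adjusted p = 0.0276).

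The partners and destroyers of NRF2 and NRF1 made up a list of 15. In hypoxia 2 were higher: Sesn2, a stress-induced sestrin that helps KEAP1 turnover, at 0.98 ± 0.17 (adjusted p = 0.00625), and the small MAF gene Maff, at least 1.41-fold (adjusted p = 0.00037). Both compounds had 5 higher and 2 lower, which became 7 and 2 in BFA and 5 and 1 in EHT-1864 after quantile normalization. Sqstm1, the autophagy receptor p62 that can take KEAP1 away for degradation, was higher by 0.95 ± 0.10 in BFA (adjusted p = 6.12e-06) and by 0.89 ± 0.10 in EHT-1864 (adjusted p = 3.62e-05). Gsk3b, a kinase that marks NRF2 for a KEAP1-independent ligase, fell by 0.80 with BFA (adjusted p = 5.35e-05) and by 0.46 with EHT-1864 (adjusted p = 0.00639). Btrc, part of that ligase, fell by 0.56 with EHT-1864 (adjusted p = 0.00574). The third CNC factor Nfe2l3 was 0.81 ± 0.19 higher in BFA (adjusted p = 0.00302), and the small MAF gene Mafg was 0.81 ± 0.14 higher in EHT-1864 (adjusted p = 0.000731).

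Of 18 genes for haem, iron and quinone or aldehyde detoxification, 0 passed in hypoxia by limma (7 at an unadjusted p under 0.05, of which 4 were higher), 1 was higher and 10 lower in BFA (2 and 12 after quantile normalization), and 2 were higher and 7 lower in EHT-1864 (1 and 5). Ugdh, which makes the sugar acid used in glucuronidation, fell by 2.42 with BFA (adjusted p = 7.37e-08) and by 1.89 with EHT-1864 (adjusted p = 3.06e-06) on the log2 scale. Nqo2, the relative of Nqo1, was at least 1.68-fold lower in BFA, where it was below the floor (adjusted p = 7.36e-08). Ftl1, the ferritin light chain that stores iron freed from haem, was 0.67 ± 0.12 higher with EHT-1864 (adjusted p = 0.00108). Of 7 genes that remove superoxide and peroxide, 0 passed in hypoxia by limma (0 at an unadjusted p under 0.05), 1 was higher and 4 lower in BFA (3 and 3 after quantile normalization), and 1 was higher and 1 lower in EHT-1864. Sod2, the mitochondrial superoxide dismutase, fell by 1.21 with BFA (adjusted p = 1.64e-06), and catalase (Cat) fell by 0.45 with EHT-1864 (adjusted p = 0.0199) while Sod1 was 0.32 ± 0.11 higher (adjusted p = 0.0415).

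The proteasome genes, known as targets of NRF1, were followed as 33 genes, for subunits and, as with Psmd5, for assembly chaperones. In hypoxia 0 passed by limma, though 15 had an unadjusted p under 0.05, all of them lower, against 7.80% of all probes lower. With EHT-1864, 14 were higher and 1 lower, against 13.0% and 17.4% of all probes, with a median of 0.25; Psmd14 and Psmd4, of the regulatory cap, were higher by 0.66 ± 0.14 (adjusted p = 0.00353) and 0.61 ± 0.11 (adjusted p = 0.000971), and Psmd5, an assembly chaperone, fell by 0.69 (adjusted p = 0.00219). With BFA, 5 were higher and 10 lower, against 26.1% and 24.6% of all probes, with a median of -0.17. After quantile normalization this turned round to 10 higher and 3 lower with a median of 0.11, so no direction holds for BFA. Nfe2l1 itself had not passed against hypoxic DMSO with either compound in the reported fit. With BFA it passed as higher under 4 of 21 alternatives, quantile normalization among them (log2 difference 0.54, limma adjusted p = 0.00686).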

How the data were processed

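RNA was measured on 12 Clarion S mouse arrays, 3 in each of 4 groups taken from the sample labels. The deposited values are log2 levels, 1 for each transcript cluster and array, which the authors obtained with RMA, run in Affymetrix Expression Console, per the submitters' processing notes; versions, settings and genome build are not given in the sources used here. RMA brings the arrays towards a common distribution, which can hide changes in the total RNA of a cell. The deposited values of the tested probes still differed in spread, with SDs of 2.22 to 2.52 between arrays. Of 28846 rows, 6640 controls were left out, and 22206 probes were tested without a filter. Symbols came from the platform annotation through Entrez numbers (19572 probes with 1 symbol, 2634 with none), and the brightest probe stood for a gene. limma 3.58.1 (lmFit and eBayes) in R 4.3.3 was fitted to all 12 arrays, with Benjamini-Hochberg adjustment over all probes, a threshold of 0.05, 8 residual and 4.87 prior degrees of freedom. The code of the fit was checked on simulated data with equal spread in all groups and few changed probes. These data differ in both respects, so that check does not bear on the calls reported here. Where a group had no array above the floor for a gene, a bound is given, the brighter mean against the higher of the floor and the dim value on each dim array, and no fold where that bound was under 1. The number of arrays limits the precision. Deviations of arrays with the same number were only weakly correlated (-0.18 to 0.17 over all comparisons), so the main fit has no replicate block. In each comparison without BFA, 2 of 3 arrays correlated best with their own number, and in each comparison with BFA 0 of 3 did. A weak pairing among the groups without BFA therefore stays possible. Promoter windows came from RefSeq. Alternatives were normalization, filters on dim probes, variance settings, array weights, a fit of the compared groups alone, a replicate block, leaving out each array, the floor and the rule for several probes. From each role list, the text names up to 2 of the largest rises and up to 2 of the largest falls in a comparison that passed, without overlap, above the floor in at least 1 group; likeness is printed for the 3 genes with the widest range. The 10 genes and all lists were chosen with earlier results of these data known.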

Additional observations from a re-analysis of the deposited data

Results flagged for a closer look

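The hybridization controls, which are spiked into every sample in fixed amounts and used in no comparison, were not level between the groups. Over 4 such probes the mean log2 value was 10.93 in BFA and 10.25 in EHT-1864, above 9.76 in hypoxic DMSO and 9.85 in normoxic DMSO arrays. Like the floor and the share of probes below it, they were higher in BFA than in EHT-1864 and higher in EHT-1864 than in either DMSO group. Their part in the falls of Txnrd1, Gsr and Keap1 was not tested.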

How the results depend on the processing

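Of 1260 recomputed differences of the 10 genes, 1179 kept their call or stayed uncalled, 29 lost it, 52 gained it and 0 reversed; 16 uncalled ones (of Nfe2l2, Gclc, Gclm or Txnrd1) changed sign. For hypoxic against normoxic DMSO, the genes higher were 1 in the reported fit, 2 after quantile normalization, with the floor filter, without the dimmest 25% of probes and with a trended variance, 3 with array weights, 4 in a fit of the 2 groups alone and 1 to 2 with each array left out (2 without BFA array 1 or 2 or EHT-1864 array 2). The genes lower were 0, but 1 with the floor filter, without the dimmest probes, with a trended variance, with array weights and with the 2 groups alone, and 0 to 1 with an array left out (1 without BFA array 1). Over all probes this comparison had 593 calls, against 1221 with a trended variance, 2258 with array weights, 1234 for the 2 groups alone, 1247 with the floor filter, 898 without BFA array 1, and 254 to 315 without any single DMSO array. For BFA against hypoxic DMSO, 4 genes were lower and 2 after quantile normalization; against normoxia 4 were lower, but 2 after quantile normalization, for the 2 groups alone and at fewest with an array left out (2 to 4; 2 without BFA array 1 or normoxic array 1). BFA against EHT-1864 had 0 lower and 1 with the floor filter; the 4 higher became 3 to 6 with an array left out. For EHT-1864 against hypoxic DMSO, 1 gene was higher, 2 after quantile normalization, and 0 for the 2 groups alone, with a replicate block, and 0 to 1 with an array left out. Against normoxia it was 1, but 2 after quantile normalization, without the dimmest probes and with array weights, 3 with the floor filter and with a trended variance, and 1 to 2 with an array left out; quantile normalization moved the share of higher among all calls there to 46.9%, against 36.2%. The replicate block changed no other call of the 10 genes. In no comparison did all 3 arrays correlate best with their own number, though 2 of 3 did in each comparison without BFA. With the floor at the 99th percentile of the neg controls, fewer of the 10 genes were above it on all arrays of a group. The counts were 2 in BFA, 3 in EHT-1864, 6 in hypoxic and 5 in normoxic DMSO, in place of 9, 8, 10 and 10. This floor averaged 9.56 in BFA and 8.70 in EHT-1864 arrays. Even Gsr, brighter on average than 91.4% of genes, lay below it there, at 8.72 and 8.45. How far background limits the genes in the compound-treated groups therefore depends on the floor chosen. Nqo1 was below the usual floor in those groups. The cause of these shifts was not tested.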
